A study of Trametes cinnabarina with 16 samples.

Results

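In the white-rot fungus Pycnoporus cinnabarinus, also named Trametes cinnabarina, 36 of 27990 assembly genes were lower in cultures on cellobiose than in control, on glucose and in 2 of 3 libraries on maltose. They were chosen by their measured values, after the isoforms of the transcript assembly were summed to genes. The lowest value over the 3 control libraries, the glucose library and maltose libraries 1 and 2 had to be at least 10 TPM, and at least 3 times the highest value over the 3 cellobiose libraries. TPM is a transcript abundance per length, scaled so that each library sums to 1000000. Together the 36 genes held 0.0353%, 0.0440% and 0.0398% of TPM in the cellobiose libraries, against 0.381%, 0.351% and 0.421% in the control libraries.

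All cultures were of strain PB94, started from an agar cube of 5 mm on a semi-minimal medium and grown for 5 days or longer. The energy source was cellobiose (3 libraries), glucose (1), maltose (3), poplar (3), switchgrass (3) or none, which is the control (3). Libraries from the soluble sugars and the control were made from poly-A RNA, and libraries from the plant substrates after depletion of ribosomal RNA, so preparation and plant substrate cannot be told apart. No label says that replicates came from separate cultures, so the p-values rest on a spread between libraries that may be technical only.

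White-rot fungi grow on wood by secreting enzymes that break down cellulose, hemicellulose and lignin. Cellobiose is the disaccharide that cellulases release from cellulose; maltose, its counterpart from starch, consists of the same sugar in another linkage, and both are split to glucose by glucosidases. In other filamentous fungi cellobiose or compounds made from it can induce cellulase genes, and glucose can repress genes for the use of other carbon sources. The files pair the identifiers with no gene names and 0 of them matched the reference list of 10441 genes, so no role, pathway or sequence is given for any gene, and few identifiers are printed.

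Read depth is unknown for all 16 libraries, since TPM keeps none, and a 0 in these tables can stand for an estimate that failed. The 10 most abundant genes held 83.7% of TPM in the third maltose library and 6.57% to 12.7% in the other poly-A libraries. In the plant libraries they held 25.6% to 75.3%, with the second poplar library (75.3%) and the third switchgrass library (50.8%) at the top. In such libraries less TPM is left for every other gene. A second deposited table holds the same 16 columns under other names (0 of 16 agree); the names used here are those of the first table, and the choice decides every group label.

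The gene with the widest gap was TR14927__c0_g1. It was at 1.23, 0.22 and 0.21 TPM in the cellobiose libraries, against 68.9 TPM in the glucose library, 71.2 and 62.7 TPM in maltose (libraries 1 and 2, here and below, unless the third is named), and 54.7, 25.1 and 39.8 TPM in the control libraries. Its lowest high value was 20.4 times its highest cellobiose value, and no other member came close to that ratio. TR3086__c0_g1, with the next ratio (7.81), was at 1.41, 2.20 and 2.34 TPM in cellobiose, against 20.9 TPM in glucose, 19.9 and 22.2 TPM in maltose and 21.5, 18.3 and 19.8 TPM in control. Its levels in glucose, maltose and control lay within a narrow band, so cellobiose was the only poly-A culture used by the rule that stood apart for it. The median ratio over the 36 genes was 3.85, and the lowest was 3.02. These values chose the genes and are given as a description, with no test.

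The most abundant member without an energy source was TR11328__c0_g1. It averaged 18.2 ± 6.39 TPM in cellobiose and 672 ± 121 TPM in control (SD, n = 3 each), a ratio of the control to the cellobiose mean of 37.0. TR18039__c2_g1, next in abundance, averaged 9.44 ± 1.96 TPM in cellobiose and 314 ± 74.1 TPM in control. Over the 36 genes the ratio of the control mean to the cellobiose mean ran from 3.66 to 72.1 with a median of 7.47. All members had a value above 0 in some cellobiose library, and 3 (8.33%, against 0.735% of the 7617 genes that met the level of 10 TPM in the 6 high libraries) were listed at 0 in at least 1 of them: TR2187__c0_g1, TR13784__c1_g2 and TR13303__c0_g1. Low cellobiose values were a condition of the rule for the members only, so nothing is read from that share. The relative spread between replicates was wider in cellobiose than in control, with a median coefficient of variation of 25.3% against 14.9%; over the 7581 genes at that level that are not members it was 13.2% against 9.9%. The rule made the members low in cellobiose (median of the group means 7.43 TPM) and high in control (68.8 TPM). The other genes stood at 41.65 and 45 TPM, so the spreads were compared at unlike levels and nothing is read from them.

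The genes at the edge of the rule show how sharp it is. TR1886__c0_g1, just inside the ratio, was at 4.57, 7.80 and 5.30 TPM in cellobiose and at 23.6 TPM in glucose, its lowest high value (ratio 3.02). TR23__c0_g1, just outside, reached 15.0 TPM in cellobiose with 43.1 TPM as its lowest high value (ratio 2.87). At the level of 10 TPM, TR971__c1_g1 was just inside with 10.7 TPM in glucose, and TR4904__c0_g1 just outside with 8.75 TPM. A further 14 genes at 10 TPM or more had a ratio between 2.5 and 3. The single glucose library limited the list most: without it the rule gave 63 genes, and without any other single library between 37 and 49.

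**Figure D1:**
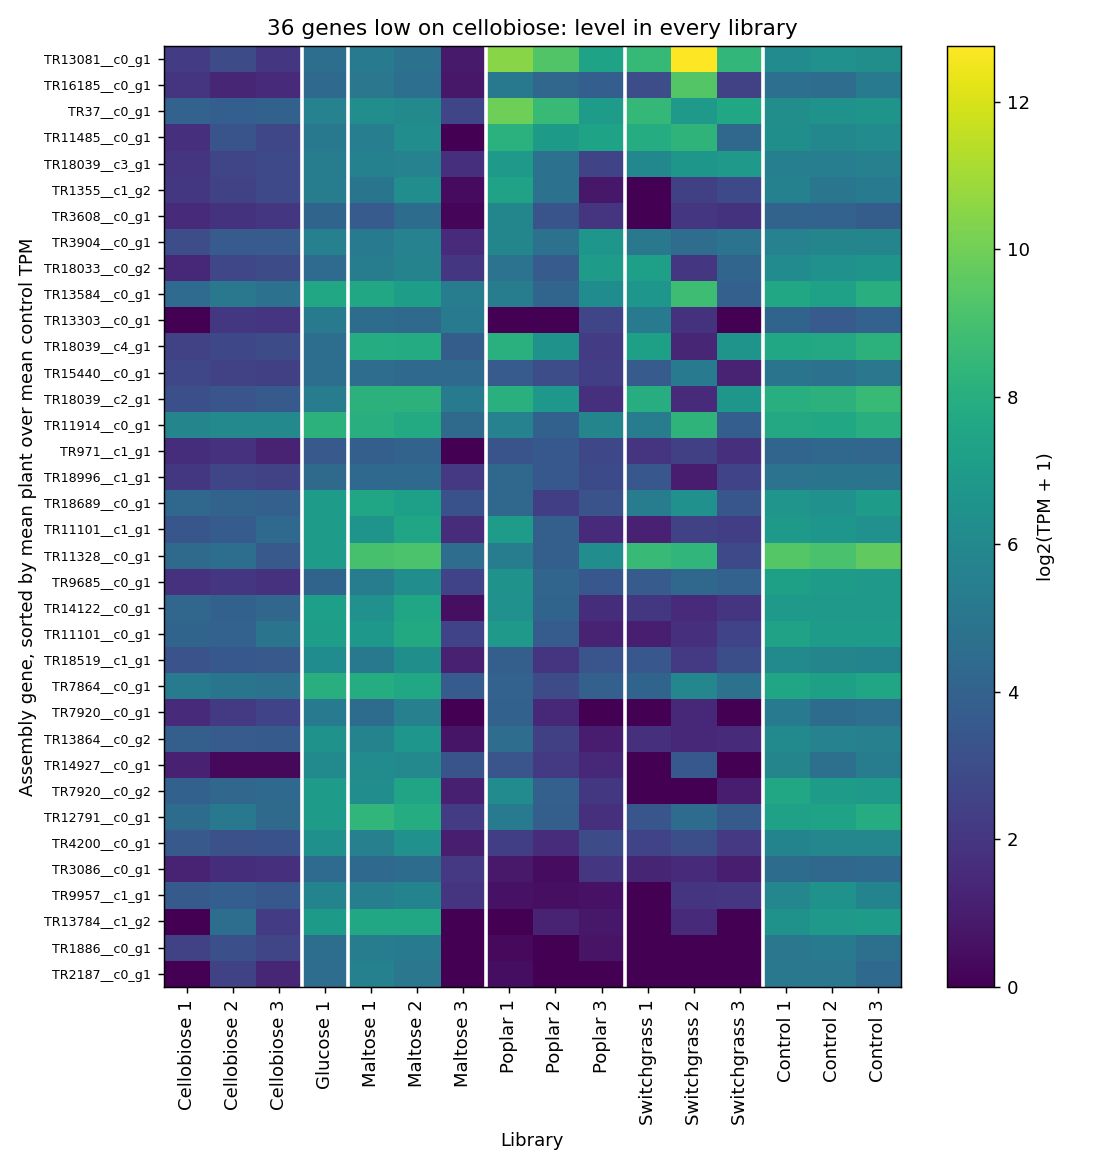
Level of the 36 genes in each of the 16 libraries as log2(TPM + 1), with genes in rows, sorted by mean plant TPM over mean control TPM, and libraries in columns, cellobiose at the left and control at the right. In every row the cellobiose columns are darker than those of glucose, of maltose 1 and 2 and of control, as the rule requires, and the plant columns range from the brightest cells of the map, such as TR13081__c0_g1 at 6931 TPM in the second switchgrass library, to 0.

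The sugars other than cellobiose did not hold all members at the control level. Glucose lay below the lowest control library in 17 of the 36 genes, or 47.2%, where the same held for 27.1% of those 7617 genes, and above the highest control library in 10, or 27.8%, against 42.4%. These libraries also entered the rule, and glucose against control rests on 1 library, so no test is given. In 7 members the glucose value was at most 0.5 times the control mean, and 5.61% of the 7581 other genes at that level did the same.

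The lowest glucose values relative to the control mean were those of TR18039__c4_g1 (0.1006 times it), TR9685__c0_g1 (0.1216) and TR18039__c2_g1 (0.1255). TR9685__c0_g1, chosen for mention on seeing its values, was at 2.49, 3.06 and 2.54 TPM in cellobiose and 16.3 TPM in glucose. It was at 39.8 and 75.7 TPM in maltose, below its control values of 150.4, 133.9 and 118.7 TPM. TR18039__c4_g1 and TR18039__c2_g1 come from 1 assembly component that also holds the member TR18039__c3_g1. TR18039__c4_g1 was at 4.46, 5.87 and 6.52 TPM in cellobiose, against 23.6 TPM in glucose, 237.8 and 232 TPM in maltose, and 202, 208 and 294 TPM in control. TR18039__c2_g1 was at 7.52, 9.38 and 11.4 TPM in cellobiose, against 39.4 TPM in glucose, 294 TPM in each maltose library, and 255, 289 and 397 TPM in control. In TR18039__c4_g1 and TR18039__c2_g1 glucose lay between cellobiose on one side and maltose and control on the other, and the maltose and control ranges overlapped. TR11328__c0_g1 had the same order, with 20.5, 23.1 and 10.95 TPM in cellobiose, against 125.5 TPM in glucose, 520.1 and 574 TPM in maltose, and 684, 545 and 787 TPM in control. At the other end, TR13303__c0_g1 was at 35.4 TPM in glucose and at 16.5, 11.8 and 15.0 TPM in control, the only member at least 2 times its control mean in glucose. Over the 36 genes the glucose value was 0.101 to 2.45 times the control mean, with a median of 0.905, and the mean of the first and second maltose libraries was 0.396 to 1.78 times it, with a median of 1.07.

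The third maltose library was not used by the rule and stands apart from the rest of the series. As deposited, 28 of the 36 genes (77.8%) were at or below their highest cellobiose value in it. Among the 7617 genes at 10 TPM or more the share was 97%, so the low values are not particular to these genes. TR13303__c0_g1 was at 37.3 TPM there, against 21.4 and 20.6 TPM in the other maltose libraries, and TR13584__c0_g1 was at 39.5 TPM, against 200.7 and 139.7 TPM. They were the highest members in that library, and 8 of the 36 reached 10 TPM (22.2%, against 22.3% of the 7617 genes). With the third maltose library among the high ones the rule gave 3 genes (TR13303__c0_g1, TR18039__c2_g1 and TR15440__c0_g1). After scaling by the median of ratios, which sets the libraries to a common typical gene, 11 of the 36 (30.6%, against 57.9% of the 7617 genes) were at or below their highest cellobiose value in it, 15 lay between cellobiose and control, and 10 reached the lowest control value. The loss of TPM to its 10 most abundant genes moves with these low values, and its part in them was not tested.

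The next measure is taken within each library, so that a factor common to all its genes cancels. It is the median TPM of the 36 genes divided by the median of the 7581 other genes that met the level of 10 TPM. It was 0.117, 0.212 and 0.158 in the cellobiose libraries, against 1.56, 1.59 and 1.5 in the control libraries, as the rule requires. In the glucose library it was 0.991, and for maltose it was 1.11 and 2.11. The third maltose library, which the rule did not use, had 0.894, above every cellobiose library and near glucose. In it 67.3% of transcripts were at 0, against 22.8% to 34.8% in the other poly-A libraries, and the measure does not correct for that. In the poplar libraries the measure was 3.12, 2.43 and 0.204, and in the switchgrass libraries 0.478, 0.193 and 0.445.

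The poplar libraries thus fell on both sides. In the first and the second the 36 genes stood higher relative to other genes than in any control library. In the third they stood where the cellobiose libraries were. All 3 switchgrass libraries were below the glucose, maltose and control libraries, and the second lay within the cellobiose range. These are medians over genes chosen by their values, given as a description, and depth and RNA quality of the libraries are not known.

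**Figure D2:**
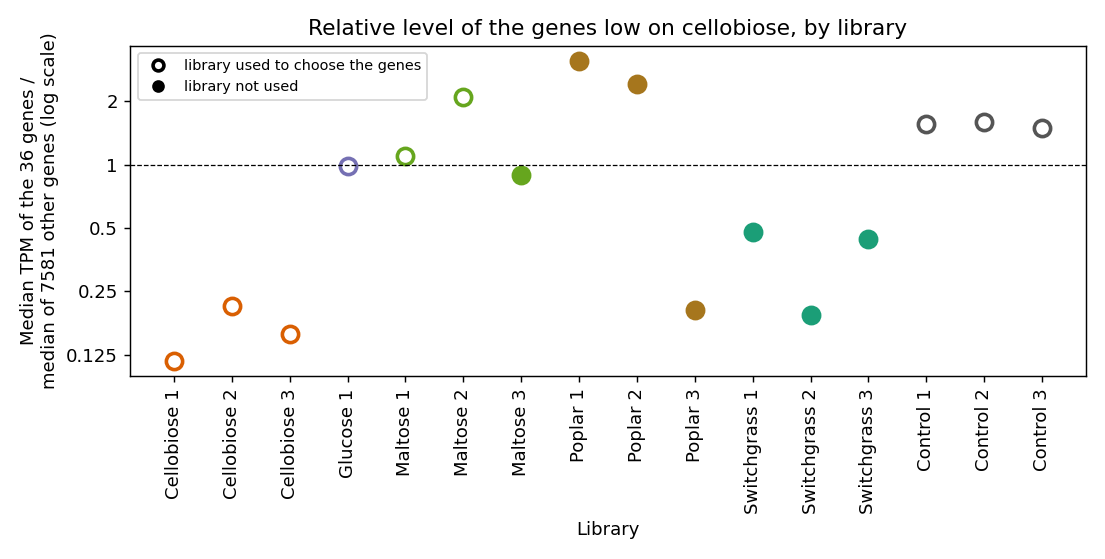
Median TPM of the 36 genes divided by the median of the 7581 other genes at 10 TPM or more, on a log axis, for each library; open circles are libraries that the rule used and filled circles are libraries it did not use. The first and second poplar libraries (3.12 and 2.43) lie above the control libraries, while the third poplar library (0.204) and the second switchgrass library (0.193) lie within the range of the cellobiose libraries.

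The split between the poplar libraries was seen gene by gene. The first poplar library was the highest of the 3 in 25 of the 36 genes (69.4%), against 16.8% of the 7617 genes at 10 TPM or more, and the third was highest in 9 (25%), against 82.5%. After the same scaling the first poplar library was at or above the lowest control value in 22 members (61.1%, against 42.2% of those genes) and the second in 18 (50%, against 42%). The third reached it in 5 members (13.9%, against 41.4%). In switchgrass it was reached in 11, 10 and 7 members (30.6%, 27.8% and 19.4%, against 42.2%, 43.5% and 42.8%). A mean over the poplar libraries therefore hides values that differ widely between them.

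Poplar was set beside control to see how the genes stood on wood. The rule required high values in the control libraries, and those values form the control side here and for switchgrass, so both comparisons with control are descriptions and nothing is read from their counts. All members passed the filter on low values for the same reason. In limma's fit to all 23981 genes tested, 11 of the 36 genes lay lower in poplar at an adjusted p under 0.05 and 0 higher. That is 30.6% lower, where 8.6% of all genes tested and 20.7% of the 7617 genes at 10 TPM or more did so, and 2.21% of all genes tested lay higher. The largest negative difference was that of TR13784__c1_g2, at 0, 1.32 and 0.77 TPM in poplar and 88.9, 120.2 and 127.5 TPM in control, with a difference of -6.13 ± 1.44 (SE) in log2(TPM + 1). Its poplar values lay below every control value, and it had been at 0, 23.8 and 3.75 TPM in cellobiose. TR9957__c1_g1 was at 0.55, 0.42 and 0.54 TPM in poplar and 58.9, 89.0 and 52.7 TPM in control, a difference of -5.46 ± 0.85. Its 3 poplar values were nearly alike, and all lay under its cellobiose values of 11.2, 13.0 and 10.5 TPM.

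The median difference from control over the 36 genes was -2.78 in poplar, beside -1.99 over the 7617 genes at 10 TPM or more and -0.74 over all genes tested; the log2(TPM + 1) scale understates changes of low genes. All 3 poplar libraries lay below the lowest control library in 24 members, or 66.7%, against 77.4% of the 7617 genes, so that share was not above the background. Scaling and single libraries moved the counts. After median-of-ratios scaling, under which the median of all genes was 0.22, 7 members were lower and 3 higher (14.1% and 5.46% of the 7617 genes), and the median of the members was -1.01. Without the third maltose library 23 were lower and 2 higher, and 71.2% of the 7617 genes were then lower, above the 63.9% of the members. Leaving out poplar library 1 gave 6 lower members (16.7%, against 6.24% of the 7617 genes) and leaving out poplar library 2 gave 4 (11.1%, against 3.93%). Without poplar library 3 there were 9 (25%, against 31.0%), a share below that of the 7617 genes. The median of the members was then -2.12, against -2.45 over the 7617 genes. Control libraries 1, 2 and 3 left out in turn gave 5, 4 and 5 (13.9%, 11.1% and 13.9%, against 4.5%, 4.08% and 5.91%).

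Switchgrass was set beside control in the same way, as a description, since the control values had chosen the genes. In switchgrass 15 of the 36 genes (41.7%) lay lower by the same limma threshold and 0 higher, where 4.74% of all genes tested and 9.19% of the genes at 10 TPM or more lay lower and 2.6% of all genes tested higher. The largest negative difference was that of TR7920__c0_g2, listed at 0, 0 and 1.01 TPM in switchgrass, against 198.8, 128.7 and 115.7 TPM in control, with a difference of -6.84 ± 1.20. Its switchgrass values were also below its cellobiose values of 14.8, 17.8 and 19.2 TPM. TR13784__c1_g2 was at 0, 1.82 and 0 TPM in switchgrass, a difference of -6.31 ± 1.44. It was thus among the most negative differences on both plant substrates.

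All 3 switchgrass libraries lay below the lowest control library in 26 members (72.2%, against 73.9% of the 7617 genes). The median difference from control was -2.82 over the 36 genes in switchgrass, -1.43 over the 7617 genes and -0.58 over all genes tested. With median-of-ratios scaling 10 members were lower and 1 higher (13.2% and 5.46% of the 7617 genes), with a median of -1.67 and a shift of the median of all genes to 0.09. In place of 15 there were 7, 9 and 7 lower members when switchgrass libraries 1, 2 and 3 were left out in turn (19.4%, 25% and 19.4%, against 3.79%, 6.7% and 4.53% of the 7617 genes). For control libraries 1, 2 and 3 there were 7, 8 and 8 (19.4%, 22.2% and 22.2%, against 3.11%, 2.95% and 3.58%). Without the third maltose library 21 were lower (58.3%, where 48.4% of the 7617 genes were lower) and 1 higher. The comparisons of poplar and of switchgrass share their control libraries.

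**Figure D3:**
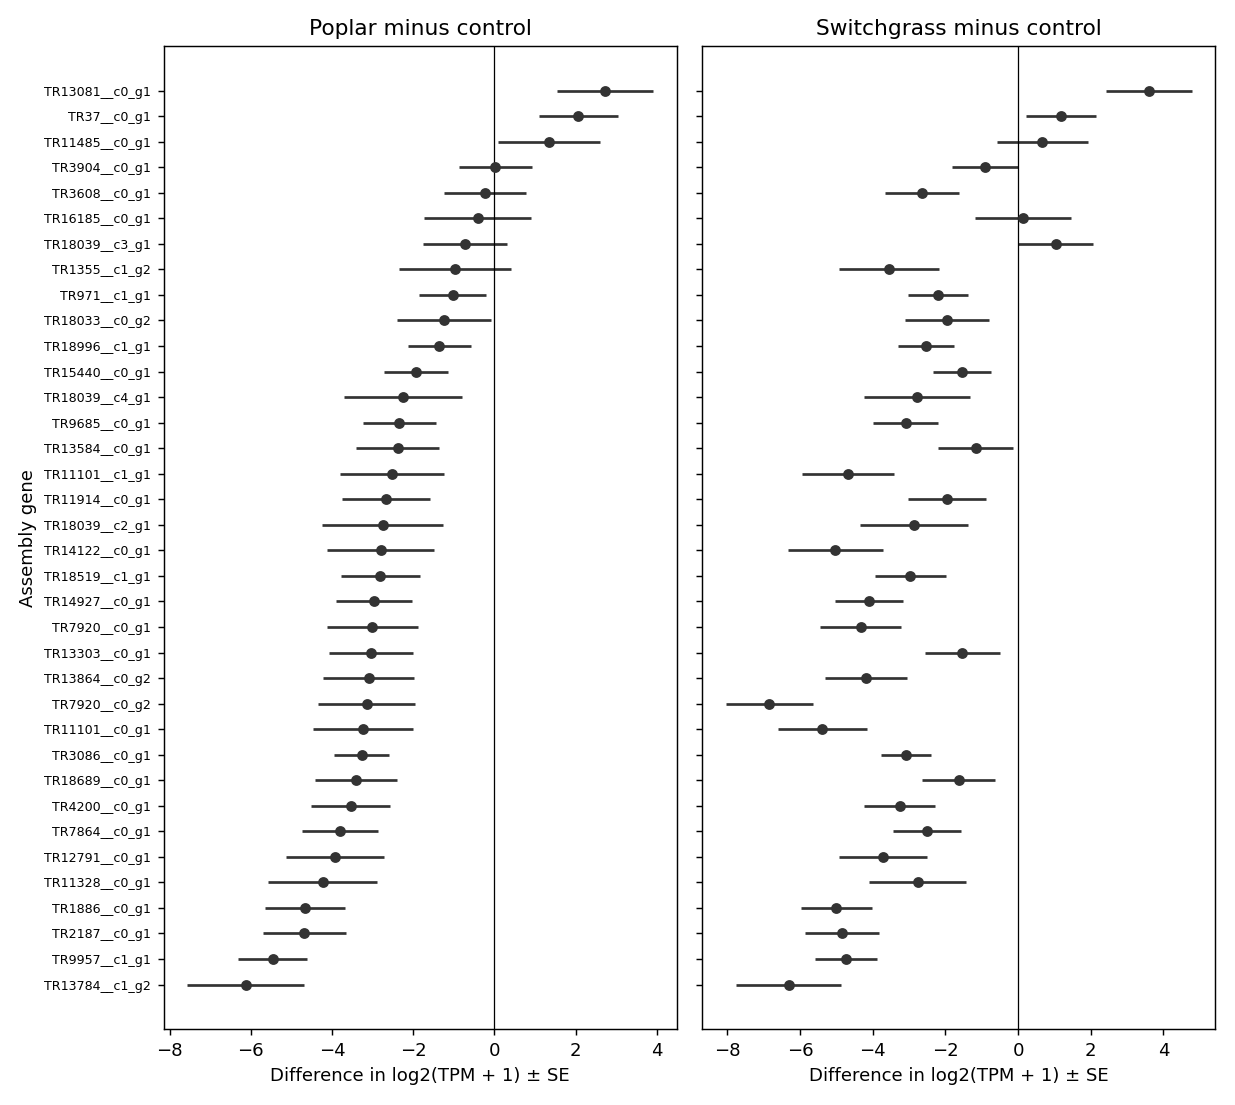
Difference from control in log2(TPM + 1), with its standard error from limma, for each of the 36 genes in poplar (left) and in switchgrass (right), sorted by the poplar value. In poplar 32 of the 36 points lie left of 0 and in switchgrass 31, and TR13081__c0_g1 has the highest difference in both.

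A few members stood higher on the plant substrates than in control. TR13081__c0_g1 was at 1419, 620.15 and 167 TPM in poplar and 375, 6931 and 349 TPM on switchgrass, against 71.5, 87.5 and 78.6 TPM in control. Every plant library exceeded every control library, and the gene had been at 3.75, 6.85 and 3.00 TPM in cellobiose and 23.6 TPM in glucose. Its differences from control were 2.73 ± 1.19 in poplar and 3.60 ± 1.19 in switchgrass, neither of them called (limma adjusted p = 0.131 and 0.0686). With median-of-ratios scaling they were 4.49 and 4.75 (limma adjusted p = 0.0132 and 0.0105). Without the second switchgrass library, where the gene was at 6931 TPM, the unscaled switchgrass difference was 2.18. TR37__c0_g1, chosen for mention on seeing its values, was the other member above the highest control library in all 6 plant libraries. It was at 991, 387 and 132 TPM in poplar and 357, 119 and 190.4 TPM in switchgrass, against 78.0, 89.4 and 95.1 TPM in control. That makes 2 of the 36 genes (5.56%), where 0.853% of the 7617 genes did the same.

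In 6 members all 6 plant libraries lay above the highest cellobiose library (16.7%, against 1.46% of the 7617 genes), and in 5 members all 6 lay at or below it (13.9%, against 75.3%), among them TR13784__c1_g2, TR9957__c1_g1 and TR1886__c0_g1. The rule set the cellobiose values low, so nothing is read from these shares. The remaining 25 members had plant libraries on both sides of their highest cellobiose value. TR18039__c2_g1 and TR18039__c4_g1 show how far apart libraries of 1 substrate could lie. TR18039__c2_g1 was at 273, 109 and 2.24 TPM in poplar and 249.6, 1.89 and 105 TPM on switchgrass, and TR18039__c4_g1 at 271, 91.8 and 3.61 TPM in poplar and 149.8, 1.62 and 97.5 TPM in switchgrass. In the third poplar and the second switchgrass library both were below their cellobiose values, and in the other plant libraries both were far above them.

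**Figure D4:**
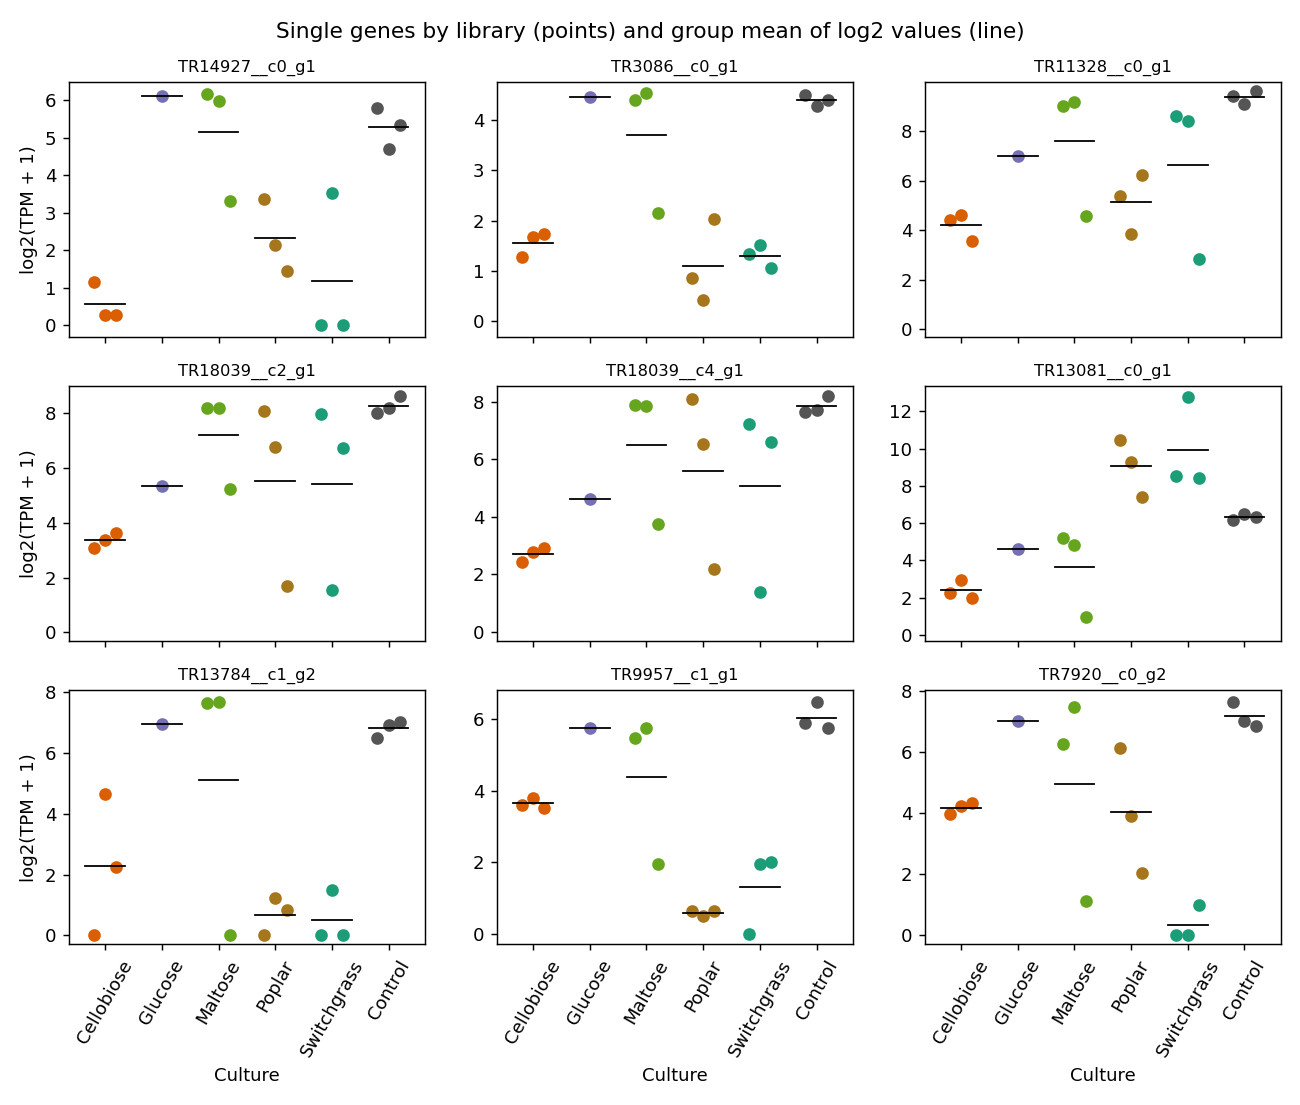
Values of 9 of the 36 genes in each library as log2(TPM + 1), by culture, with a line at the mean of the log2 values of each group; replicates 1 to 3 run from left to right within a culture. TR3086__c0_g1 is tight in cellobiose and control, TR13081__c0_g1 is highest on the plant substrates, and the TR18039 genes shown each have 1 low library in poplar and in switchgrass.

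Switchgrass against poplar is the one comparison whose 2 groups had no part in choosing the genes, and both groups share a preparation. The spread in its fit was still estimated over all 16 libraries, which include those that chose the genes. None of the 36 genes was called (limma, 0 calls; smallest adjusted p 0.689), and 2 had an unadjusted p under 0.05 (5.56%, against 4.38% of all genes tested), both lower in switchgrass, where 0.341% of the 7617 genes at 10 TPM or more were lower by that measure. With median-of-ratios scaling 10 members had an unadjusted p under 0.05 in limma's fit (27.8%, against 5.47% of the 7617 genes). Of them 9 were lower (25%, against 2.6%) and 1 higher. Without the third maltose library there were 11 (30.6%, against 8.63%), with 8 lower (22.2%, against 0.932%) and 3 higher. The first poplar library carried the lower counts of the unscaled fit to the other libraries: without it 0 members were lower (against 0.158%), and 1 was under that p in either direction (2.78%, against 1.09%). None of these passed adjustment over all genes (0 calls in each of these fits). A limma fit to the 2 plant groups only, whose libraries the rule did not use, also called 0 members. In it 1 member had an unadjusted p under 0.05 (2.78%, against 2.99% of all genes tested). In the fit to all 16 libraries 0.025% of all genes tested were called, so calls were rare throughout. The largest negative difference was that of TR7920__c0_g2, at 0, 0 and 1.01 TPM in switchgrass and 69.4, 14.0 and 3.13 TPM in poplar, or -3.69 ± 1.20 (limma adjusted p = 0.689). The groups did not overlap for this gene, but its poplar libraries spread widely. The largest positive difference was 1.79 ± 1.01 for TR18689__c0_g1 (limma adjusted p = 1.00), at 42.0, 86.1 and 9.73 TPM in switchgrass and 18.7, 4.15 and 8.62 TPM in poplar, where the groups overlapped. The median difference was -0.26 over the 36 genes, 0.55 over the 7617 genes and 0.27 over all genes tested. With median-of-ratios scaling it was -0.71 over the 36 genes and 0.01 over the 7617 genes. Without the first poplar library the median of the members was 0.04.

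Poplar lay above switchgrass without overlap in 2 members (5.56%, against 0.302% of the 7617 genes), TR7920__c0_g2 and TR971__c1_g1. TR971__c1_g1 was at 2.74, 4.36 and 2.29 TPM in switchgrass and 9.12, 10.2 and 5.75 TPM in poplar. Switchgrass lay above poplar without overlap in 1 member (2.78%, against 2.63%). That gene, TR7864__c0_g1, also chosen for mention on seeing its values, had 16.1, 59.6 and 26.2 TPM in switchgrass and 15.2, 6.78 and 14.1 TPM in poplar.

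The 36 genes had fewer isoforms than other genes of their level. In 34 of them (94.4%) the assembly held 1 isoform, against 65.4% of the 7617 genes at 10 TPM or more. They came from 32 assembly components, which group transcripts that share sequence, and 3 components held 2 or more members, 7 in all. Members of 1 component may be parts of 1 locus or near copies that share reads, and their values are then not independent. Besides the 3 TR18039 genes, TR7920__c0_g1 and TR7920__c0_g2 form such a pair, and TR11101__c0_g1 and TR11101__c1_g1 another. TR7920__c0_g1 was at 1.83, 3.43 and 4.88 TPM in cellobiose and 36.7, 21.9 and 24.5 TPM in control, and followed its partner in poplar with 14.5, 1.76 and 0 TPM.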

How the data were processed

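Expression was measured by RNA sequencing in 16 libraries of 6 cultures. The authors deposited 2 tables of 45286 assembled transcripts, both in TPM; the one named for estimated counts also sums to 1000000 within 0.87 in every column. Per the submitters' processing notes RSEM was used; the sources used here give neither its version nor the assembly, alignment and filtering steps. Isoforms were summed to genes with Python 3.11.15 (pandas 2.3.3). Genes that reached 1 TPM in 3 or more libraries (23981) entered limma's trend fit (version 3.58.1 under R 4.3.3) of log2(TPM + 1) to 6 culture means across 16 libraries; calls have a Benjamini-Hochberg adjusted p under 0.05. Comparisons with control share libraries with the choice of genes and are descriptions. The test was also run on simulated data in which a gene had the same spread in every library. The libraries here differ widely, so that run does not show how the test behaves on them. Single-gene permutation tests were not run. TPM allows no counting interval. The members, the comparisons and the rule for named genes were chosen with earlier results of these data known. Named were the members highest in control, in ratio, on plants and in the third maltose library, those at the thresholds, the largest differences per comparison and pairs of 1 component; others are marked. No pathway list could be used, since no identifier has a name. The closing section gives the effect of other pseudocounts, filters, scalings, sample sets, weights, column names and left-out libraries.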

Additional observations from a re-analysis of the deposited data

How the results depend on the processing

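The number of genes under the rule was 82 at a ratio of at least 2, 15 at 4, 3 with the third maltose library among the high ones and 0 under the second table's column names; leaving out 1 library gave 37 to 63, and 12 of 17 alternatives stayed within 1.5 times of 36. For switchgrass against poplar the count of called members was 0 in 12 of 15 alternatives, 16 with weights per library (15 lower, 41.7%, against 2.91% of the 7617 genes at 10 TPM or more), 21 under the second table's names (all higher, 58.3%, against 1.12%) and 1 with scaling and without the third maltose library (lower, 2.78%, against 0.341%), which was chosen after seeing the data. For poplar against control the 11 genes became 7 with no filter (all lower, 19.4%, against 17.2% of the 7617 genes). There were 25 without the third maltose library (23 lower, 63.9%, against 71.2%, and 2 higher, 5.56%, against 0.683%). A fit to the 2 groups gave 20 (19 lower, 52.8%, against 52.9%, and 1 higher, 2.78%, against 0.512%). Weights gave 29 (23 lower, 63.9%, against 92.3%, and 6 higher, 16.7%, against 3.28%). Leaving out 1 library gave 4 to 9. The second table's names also gave 11, of which 8 were lower (22.2%, against 1.47%) and 3 higher (8.33%, against 69.4%). Lower and higher shares thus lay on either side of those of the 7617 genes. Control values had chosen the genes, so nothing is read from these shares. For switchgrass against control the 15 genes became 27 with weights (25 lower, 69.4%, against 65.8%, and 2 higher, 5.56%, against 2.09%). Under the second table's names there were 25 (23 higher, 63.9%, against 73.1%, and 2 lower, 5.56%, against 0.709%). Without 1 library there were 7 to 9. The estimation of the weights did not converge. The causes were not tested. Under the second table's names TR18689__c0_g1 kept its sign for switchgrass against poplar, with 2.65 (limma adjusted p = 0.0404), and the other differences followed there changed sign: for poplar against control -6.64 for TR13081__c0_g1, 1.61 for TR13784__c1_g2 and 3.06 for TR9957__c1_g1; for switchgrass against control -2.73 for TR13081__c0_g1, 3.15 for TR7920__c0_g2 and 6.13 for TR13784__c1_g2; for switchgrass against poplar 2.99 for TR7920__c0_g2.

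Replicate numbers are shared across groups, but deviations of same-numbered libraries correlated between -0.19 and 0.07, so the numbers were not taken as pairs. With the replicate number as a block 0 members were called for switchgrass against poplar, where 4 of the 23981 genes tested were called. For poplar against control 11 were called, all lower (30.6%, against 14.8% of the 7617 genes at 10 TPM or more). For switchgrass against control there were 15 (14 lower, 38.9%, against 7.85%, and 1 higher, 2.78%, against 0.381%). Depth is unknown in every library, so a value of 0 cannot be given an upper limit.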

Other observations

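The same rule with another culture as the low one gave 5 genes low in the glucose library against the other 8 libraries, 1 gene low in the first and second maltose libraries against 7 and 0 genes low in the 3 control libraries against 6. The numbers of low libraries differ, which changes how many genes can pass.

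The components of the 36 genes held 13 other genes at 10 TPM or more in the 6 high libraries. In 12 of them the control mean was above the cellobiose mean, and the ratio of the control to the cellobiose mean ran from 0.299 to 5.72. The exception was TR18039__c7_g1, singled out after its values were seen. It shares a component with 3 members and was at 711, 1054 and 1164.5 TPM in cellobiose, against 129 TPM in glucose, 193 and 227 TPM in maltose libraries 1 and 2 and 349.65, 252 and 273 TPM in control. In the second switchgrass library it was at 5040.5 TPM, where TR18039__c2_g1 and TR18039__c4_g1 were at 1.89 and 1.62 TPM.

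In both members with several isoforms the main isoform was low in cellobiose. The most abundant isoform of TR3086__c0_g1 was at 1.21, 2.05 and 2.06 TPM in cellobiose and 18.2, 16.8 and 18.5 TPM in control. That of TR18033__c0_g2 was at 0.97, 4.57 and 4.97 TPM in cellobiose and 59.7, 76.0 and 80.9 TPM in control. The other isoform of TR18033__c0_g2 was lower too, at 0.76, 0.94 and 1.7 TPM in cellobiose and 10.99, 11.97 and 14.46 TPM in control.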
